A study of Mus musculus with 6 samples.

Results

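Transforming growth factor beta (TGF-beta) receptors and SMAD proteins were examined as 10 genes of the mouse, chosen by name: the ligand gene Tgfb1, the receptor genes Tgfbr1, Tgfbr2 and Tgfbr3, the SMAD genes Smad2, Smad3, Smad4 and Smad7, and the corepressor genes Ski and Skil. All 10 were found by symbol among the 52997 genes of the deposited count table, and all 10 passed the filter on low counts that left 11681 genes for testing. Messenger RNA had been sequenced from CD4+ T cells sorted from the pooled lymph nodes of 10-day-old infant mice and 7-week-old adult mice, with 3 mice in each group and 1 mouse per library. Every mouse, infant and adult, was a Foxp3-GFP animal on the C57BL/6 background, in which cells that express the regulatory T cell factor Foxp3 are marked by a green fluorescent protein, and none had been given a treatment that the labels name. In the titles the cells carry the name Tconv, which usually stands for conventional T cells, and the series calls them naive. No source used here states the markers of the sort gate.

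TGF-beta is a secreted cytokine that is stored in a latent form and binds a type II receptor, encoded by Tgfbr2, which then recruits and phosphorylates the type I receptor, encoded by Tgfbr1. The type I receptor phosphorylates SMAD2 and SMAD3, which join SMAD4 and enter the nucleus to regulate genes, while SMAD7 blocks the receptor and SKI and SKIL repress SMAD-bound genes. In CD4+ T cells the pathway is known for restraining activation and for supporting the induction of Foxp3, and mice whose T cells lack the type II receptor develop fatal inflammation.

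The libraries held 3421253 to 4887371 counts, and a floor of 3 counts lay at 0.628 to 0.852 CPM (counts scaled to the size of the library), for counting error only. Adult replicate 2 stood apart: reads fell on 36373 genes in it and on 17992 to 21840 genes in each of the others, and without it 0 of the 10 members passed as well. The cells carried the RNA of CD4+ T cells in both ages, with Cd4 at 867 ± 10.4 CPM in infant and 979.9 ± 136 CPM in adult libraries (mean ± SD, n = 3 each). Foxp3 was at 7.61 ± 1.39 CPM in infant and 5.60 ± 0.968 CPM in adult libraries. In sorted populations measured in bulk, fewer cells that express a gene and less RNA of it per cell cannot be told apart.

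None of the 10 members passed the test between infant and adult cells, where 3.64% of all 11681 tested genes did (quasi-likelihood test of edgeR, Benjamini-Hochberg adjusted over all tested genes, adjusted p under 0.05), 1.52% being higher and 2.11% lower in infant cells. The DESeq2 Wald test and limma-voom also called 0 of the 10. Without adjustment 1 member, Skil, had a p under 0.05, and the share of all tested genes with such a p was 17.3%. The infant values of 1 member, Tgfb1, lay wholly below its adult values, and the 2 ages overlapped in the other 9. The ages did not overlap in 22.8% of all tested genes (11.2% higher and 11.6% lower in infant cells). Scaled by library totals, the ages overlapped in Tgfb1 too. The median log2 fold change (infant over adult) of the 10 members was 0.11, against −0.0017 over all tested genes, with 7 members above 0 and 3 below.

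Per kilobase of exon, the type II receptor gene had the highest level of the members and the ligand gene the lowest in both ages. Tgfbr2 was at 75.8 ± 23.0 CPM per kilobase in infant and 61.9 ± 22.1 in adult cells (SD, n = 3 each), followed by Tgfbr3 at 22.7 ± 1.75 in infant and 25.2 ± 1.81 in adult cells and by Ski at 18.5 ± 0.935 in infant and 16.2 ± 4.05 in adult cells. These 3 held the same places in both ages, and the values of each lay apart from those of the gene below it. Per kilobase of the longest transcript the adult values of Ski and Smad7 overlapped. In adult replicate 1 Ski was at 13.8 and Smad7 at 14.3. Smad3, Smad4, Smad7, Smad2 and Skil came next, with mean levels of 9.25 to 12.4 CPM per kilobase in infant and 7.75 to 11.4 in adult cells. Within this group of 5, the libraries of each gene overlapped with those of its neighbour in the order at both ages, so that neighbours did not differ beyond their spread. Tgfbr1 stood below them at 6.06 ± 0.428 in infant and 5.70 ± 0.303 in adult cells, and Tgfb1 was lowest at 1.46 ± 0.262 in infant and 1.99 ± 0.326 CPM per kilobase in adult cells. The level of Tgfb1 depends on the exon length used: per kilobase of its longest transcript rather than of all its exons, its mean over the 6 libraries was 3.38 in place of 1.72, and it was still the lowest. Tgfb1 is usually well detected in T cells, its place here rests on 29 to 42 counts per library, and no source used here names the annotation it was counted on, so whether the counting lowered its level was not tested.

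**Figure D1:**
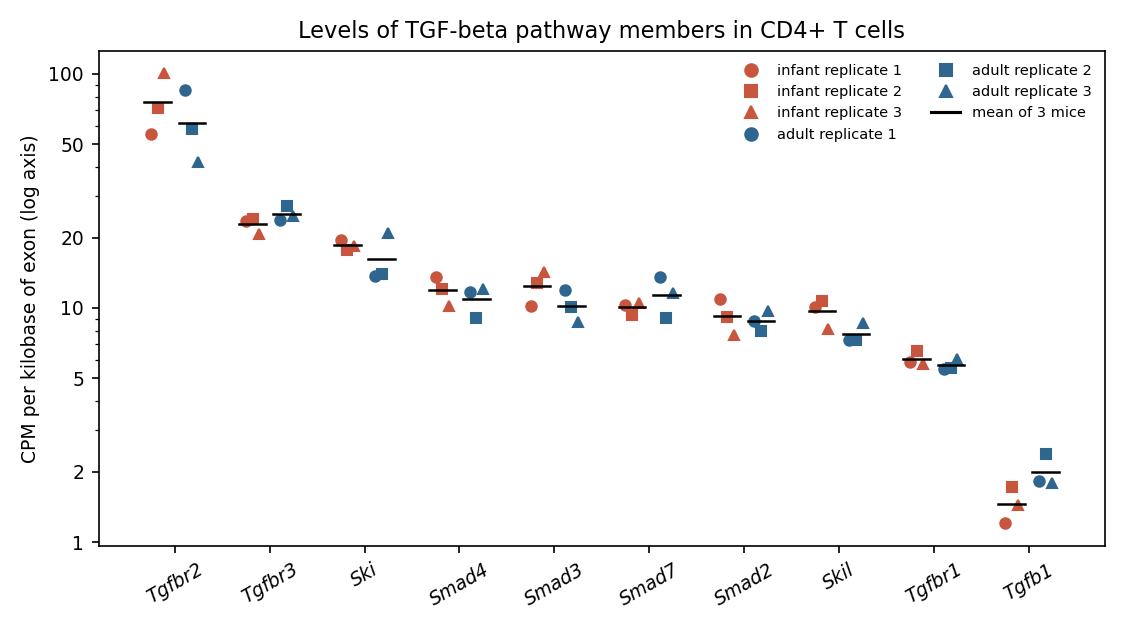
Level of each member in each library, in CPM per kilobase of exon on a log axis, with infant libraries (red) left of adult libraries (blue), 1 symbol per mouse and a line at the mean of 3 mice. Tgfbr2 lies above all other members and spreads widely within each age, and Tgfb1 lies lowest. Tgfb1 is the member whose 3 infant values all lie below its 3 adult values, a narrow separation that is lost when scaled by library totals.

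The ligand gene Tgfb1 (chromosome 7, 25687002 to 25705077, plus strand, mouse build mm10) encodes the main TGF-beta of the immune system. It had 29, 36 and 30 counts in the infant and 38, 42 and 42 in the adult libraries, which is 6.07, 8.71 and 7.25 CPM in infant and 9.21, 11.9 and 8.97 CPM in adult cells. All 3 infant values lay below all 3 adult values, with little distance between infant replicate 2 and adult replicate 3. Scaled by library totals the ages overlapped, with 1.73 CPM per kilobase in infant replicate 2 and 1.70 in adult replicate 3. The log2 fold change was −0.45 ± 0.35 (SE, edgeR adjusted p = 0.566), with a 95% interval from −1.19 to 0.29, the widest of the 10. The summed level of 5 platelet and megakaryocyte markers, a lineage rich in TGF-beta, was 1.21 to 1.45 CPM in infant and 0.641 to 4.55 CPM in adult libraries. The summed level of 9 regulatory T cell markers was 133.6 to 134.3 CPM in infant and 156 to 173 CPM in adult libraries, without overlap. Most of the difference in that sum was Tnfrsf18 (68.0 CPM in infant and 99.7 CPM in adult cells on average), while 4 of the 8 tested markers, Foxp3 among them, had a log2 fold change above 0, and 0 passed the test. Under other settings 1 marker passed as lower in infant cells: with library totals, with a stricter filter, by DESeq2 and without adult replicate 2. The part of either cell type in the level of Tgfb1 was not tested. Without 1 library the log2 fold change ran from −0.59 to −0.31, being −0.31 without adult replicate 2, which had the highest value.

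Tgfbr2 (chromosome 9, 116084293 to 116175360, minus strand) encodes the type II receptor, which binds the ligand. It had 452, 586 and 824 CPM in the infant and 701, 476 and 343 CPM in the adult libraries. Adult replicates 1 and 2 lay inside the infant range and adult replicate 3 below it, and the highest library exceeded the lowest 1.82-fold within the infants and 2.04-fold within the adults. The log2 fold change was 0.29 ± 0.23 (edgeR adjusted p = 0.567, 95% interval −0.19 to 0.78). It ran from 0.032 without infant replicate 3 to 0.61 without adult replicate 1 and passed the test in neither case (adjusted p = 0.971 and 0.226).

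The spread of Tgfbr2 between mice of the same age was large for a gene of its level. The SD of its log2 CPM within an age was 0.48, against a median of 0.14 over the 2232 tested genes with a mean of at least 100 CPM, and 98.8% of those genes had a lower SD. Tgfbr3, the other member above that level, had an SD of 0.11, below the median. The remaining members had means under 100 CPM, and their SDs ran from 0.088 for Tgfbr1 to 0.25 for Ski, against a median of 0.18 over the 7080 tested genes with a mean of at least 20 CPM. Tgfb1, with an SD of 0.23 at a mean of 8.69 CPM, lay below the level of those genes, so that median is no like comparison for it.

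Tgfbr1 (chromosome 4, 47353222 to 47414931, plus strand) encodes the type I receptor kinase that phosphorylates SMAD2 and SMAD3. It had 38.3, 42.8 and 37.7 CPM in the infant and 35.9, 36.4 and 39.5 CPM in the adult libraries. All 6 values lay close together, and the log2 fold change of 0.087 ± 0.17 had a 95% interval from −0.28 to 0.45 (edgeR adjusted p = 0.858). On the linear scale the interval spans 0.825-fold to 1.37-fold, which a 2-fold change in either direction lies outside. The ratio of Tgfbr2 to Tgfbr1 per kilobase was 9.41, 10.9 and 17.5 in the infant and 15.6, 10.4 and 6.93 in the adult libraries, and it followed Tgfbr2.

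Tgfbr3 (chromosome 5, 107106570 to 107289629, minus strand) encodes betaglycan, a coreceptor that presents the ligand to the type II receptor. It had 154, 157 and 136 CPM in the infant and 155, 178 and 161 CPM in the adult libraries, with overlapping ages. Its log2 fold change of −0.15 ± 0.12 had the narrowest interval of the 10, from −0.39 to 0.10 (edgeR adjusted p = 0.574). A tentative gene model on the same strand, Gm43422, shares 297 bases of exon with Tgfbr3, or 4.54% of its exon bases, and no source used here states how reads there were assigned.

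SMAD2 and SMAD3 are the receptor-regulated SMADs of the TGF-beta branch. Smad3 (chromosome 9, 63646767 to 63757994, minus strand) had 56.3, 70.6 and 78.7 CPM in the infant and 66.2, 56.0 and 48.1 CPM in the adult libraries. The infant replicates 2 and 3 lay above every adult, and infant replicate 1 lay among the adults. Its log2 fold change was 0.27 ± 0.17 (edgeR adjusted p = 0.463, 95% interval −0.093 to 0.64), and it ran from 0.16 without infant replicate 3 (adjusted p = 0.780) to 0.40 without infant replicate 1 (adjusted p = 0.338), and was 0.16 without adult replicate 3 (adjusted p = 0.749). Smad2 (chromosome 18, 76241580 to 76310963, plus strand) had 96.1, 80.1 and 67.6 CPM in the infant and 77.3, 69.9 and 85.2 CPM in the adult libraries. The 3 adult values lay inside the infant range, with a log2 fold change of 0.068 ± 0.15 (adjusted p = 0.877, 95% interval −0.26 to 0.40). The ratio of Smad3 to Smad2 per kilobase was 0.929, 1.40 and 1.84 in the infant and 1.36, 1.27 and 0.893 in the adult libraries, so that neither SMAD was the more abundant one in every library.

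Smad4 (chromosome 18, 73639009 to 73703780, minus strand) encodes the common partner of the receptor-regulated SMADs. It had 50.3, 44.7 and 37.9 CPM in the infant and 43.4, 33.5 and 44.9 CPM in the adult libraries, with a log2 fold change of 0.12 ± 0.18 (edgeR adjusted p = 0.800, 95% interval −0.27 to 0.52). Without 1 library it ran from 0.0078 to 0.22. Smad7 (chromosome 18, 75367529 to 75395935, plus strand) encodes the inhibitory SMAD, which is itself induced by the pathway. It had 46.7, 42.3 and 47.3 CPM in the infant and 61.1, 40.9 and 52.6 CPM in the adult libraries. Adult replicates 1 and 3 were above all infants and adult replicate 2 was below them, with a log2 fold change of −0.18 ± 0.18 (adjusted p = 0.658, 95% interval −0.56 to 0.20). It was −0.042 without adult replicate 1 (adjusted p = 0.950) and −0.32 without adult replicate 2 (adjusted p = 0.384). Set against the sum of Smad2 and Smad3 per kilobase, Smad7 was at 0.489, 0.428 and 0.478 in the infant and 0.651, 0.501 and 0.632 in the adult libraries. That ratio did not overlap between the ages, with little distance between infant replicate 1 and adult replicate 2, and is given as a description. Smad7, Smad2 and Smad3 each overlapped on their own, as did the other ratios given here. Of all tested genes taken singly, 22.8% did not overlap.

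Skil (chromosome 3, 31095058 to 31122577, plus strand) encodes SnoN, a corepressor of SMAD-bound genes that the pathway first degrades and then induces. It had 98.2, 104 and 79.0 CPM in the infant and 71.0, 70.5 and 84.0 CPM in the adult libraries. Infant replicates 1 and 2 were above all adults, and infant replicate 3 was below adult replicate 3. Of the 10 members Skil had the smallest p, with a log2 fold change of 0.32 ± 0.15 and a 95% interval from 0.0064 to 0.63 (edgeR unadjusted p = 0.0460, adjusted p = 0.279). Its log2 fold change stayed above 0 without any 1 library (0.24 to 0.43), and the adjusted p was never under 0.224. Its related corepressor Ski (chromosome 4, 155154075 to 155222592, minus strand) had 109, 98.4 and 102 CPM in the infant and 76.1, 77.8 and 116 CPM in the adult libraries. All 3 infants were above adult replicates 1 and 2, and adult replicate 3 was above all infants. The log2 fold change of 0.19 ± 0.16 (adjusted p = 0.604, 95% interval −0.15 to 0.54) was 0.085 without adult replicate 1 (adjusted p = 0.886), 0.10 without adult replicate 2 (adjusted p = 0.819) and 0.42 without adult replicate 3 (adjusted p = 0.179). The ratio of Skil to Ski per kilobase was 0.518, 0.608 and 0.445 in the infant and 0.535, 0.519 and 0.415 in the adult libraries, with overlapping ages.

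**Figure D2:**
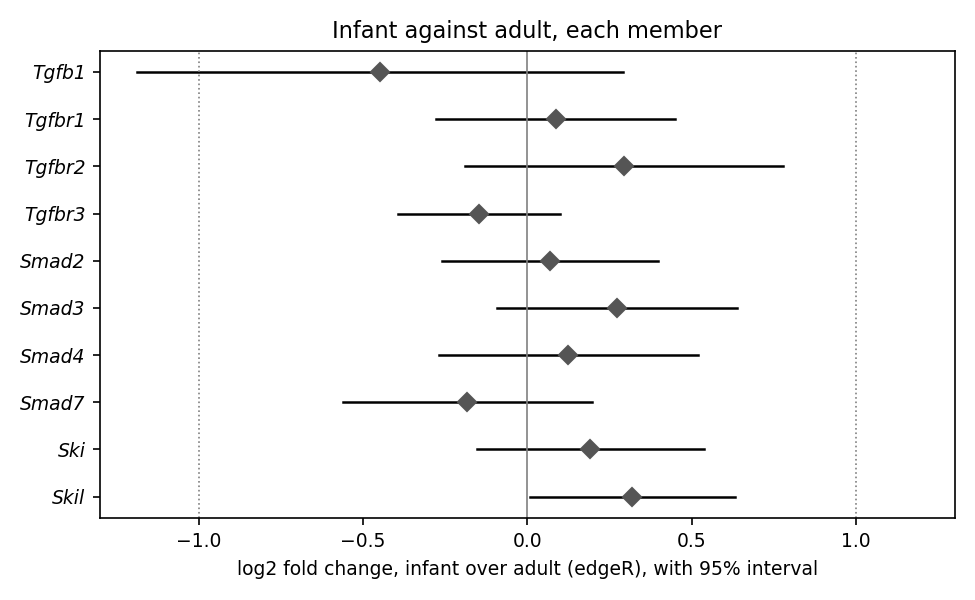
Log2 fold change of each member (diamond), infant over adult, with its 95% interval (bar) from edgeR, with dotted lines at a 2-fold change in either direction. The intervals of 9 members include 0, that of Skil begins at 0.0064, and the interval of Tgfb1 is the one that reaches past a 2-fold change.

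Of the 45 pairs of members compared over the 6 libraries, 0 had a correlation that passed after adjustment, and the 3 of smallest p are described. With 6 libraries there are 720 pairings, so no pair on its own could pass after adjustment over the 45 pairs. That 0 passed therefore cannot decide whether any 1 pair varied together. Tgfbr2 and Smad3 had Pearson's r = 0.95 (log2 CPM, 6 libraries, exact permutation test over 720 pairings, two-sided p = 0.0111, adjusted p = 0.333 over the 45 pairs of members). Spearman's rho was 0.89 (exact permutation p = 0.0333, adjusted p = 0.500). Without the 2 libraries farthest from the median of Tgfbr2, r was 0.82. Both genes were highest in infant replicate 3 and lowest in adult replicate 3, and r was 0.97 for the deviations from the mean of each age. Smad2 and Smad4 had r = 0.90 (exact permutation p = 0.0222, adjusted p = 0.333), rho = 0.94 (exact permutation p = 0.0167, adjusted p = 0.500) and r = 0.91 without the 2 farthest libraries. Tgfbr1 and Skil had r = 0.86 (exact permutation p = 0.0222, adjusted p = 0.333), rho = 0.89 (exact permutation p = 0.0333, adjusted p = 0.500) and r = 0.65 without the 2 farthest libraries. No other pair had an unadjusted p under 0.05.

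**Figure D3:**
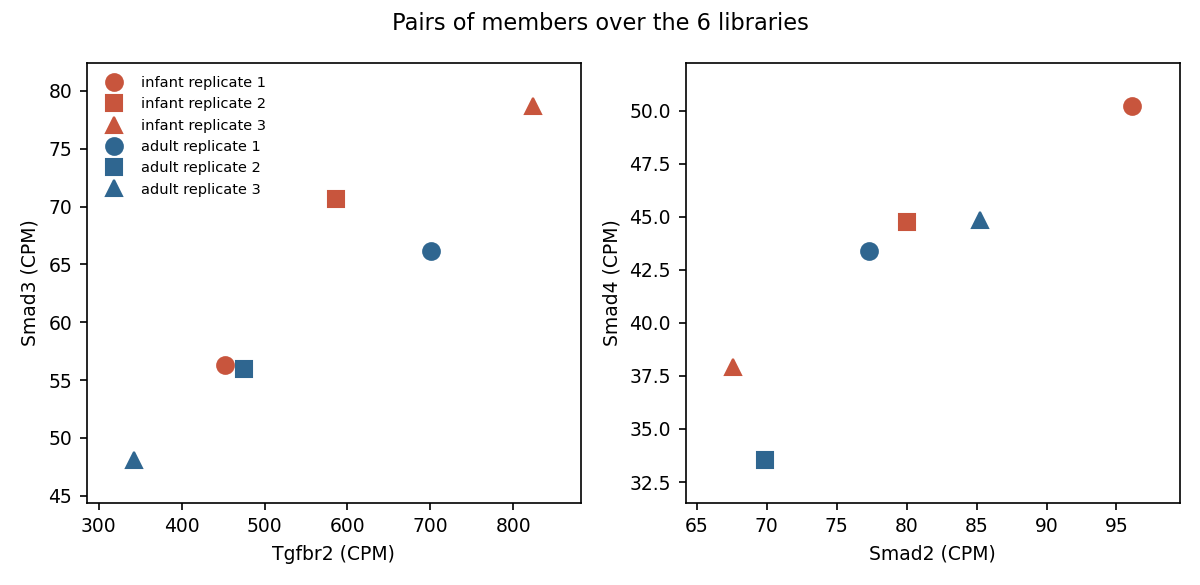
Level of Smad3 against Tgfbr2 (left) and of Smad4 against Smad2 (right) in CPM, 1 symbol per library, with infant libraries in red and adult libraries in blue. The libraries high in one gene of a pair tend to be high in the other, with infant and adult libraries mixed. Neither pair passed after adjustment over the 45 pairs, which no pair on its own could do with 6 libraries.

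The DNA upstream of 3 members is shown: Tgfbr2 and Smad3, the pair with the highest correlation in these libraries, and Tgfbr1, the partner of Tgfbr2, whose level had the smallest spread. Each line gives the 250 bases before the RefSeq start of the gene (GRCm38.p6, the assembly of mm10), 5′ to 3′ on the strand of the gene, with capitals for GC boxes (GGGCGG) and for the core of the SMAD-binding element (CAGAC), each searched on both strands, with no overlap between the motifs in these windows. The windows are chr9:116175364-116175613 (minus strand) for Tgfbr2, chr9:63757995-63758244 (minus strand) for Smad3 and chr4:47352972-47353221 (plus strand) for Tgfbr1, the first of 2 windows listed for that gene.
Tgfbr2: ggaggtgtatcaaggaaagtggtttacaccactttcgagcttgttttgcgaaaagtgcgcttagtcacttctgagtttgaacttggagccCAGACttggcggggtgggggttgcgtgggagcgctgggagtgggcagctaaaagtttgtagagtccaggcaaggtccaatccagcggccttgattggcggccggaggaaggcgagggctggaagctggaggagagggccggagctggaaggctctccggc
Smad3: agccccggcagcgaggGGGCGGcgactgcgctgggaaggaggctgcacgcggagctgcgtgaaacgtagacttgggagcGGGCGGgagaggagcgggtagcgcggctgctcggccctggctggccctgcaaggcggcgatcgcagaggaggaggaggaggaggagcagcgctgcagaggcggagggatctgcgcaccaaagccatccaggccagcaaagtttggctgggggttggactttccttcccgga
Tgfbr1: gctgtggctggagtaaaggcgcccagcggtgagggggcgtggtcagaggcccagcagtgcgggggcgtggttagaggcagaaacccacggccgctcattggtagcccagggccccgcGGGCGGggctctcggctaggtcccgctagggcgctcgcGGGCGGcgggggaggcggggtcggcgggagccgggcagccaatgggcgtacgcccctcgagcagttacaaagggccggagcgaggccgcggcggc
The window of Tgfbr2 held 0 GC boxes and 1 SMAD element, while those of Smad3 and Tgfbr1 each held 2 GC boxes and 0 SMAD elements. The second window listed for Tgfbr1 (chr4:47385966-47386215, plus strand, not printed) held 0 GC boxes and 1 SMAD element, as that of Tgfbr2 did. A TATA box (TATAAA) was in 0 of these windows. Of all 32851 RefSeq windows of the same length, 32.7% held a GC box, 42.2% the SMAD element and 12.4% a TATA box. The G and C content was 58.4% for Tgfbr2, 69.2% for Smad3 and 74.8% for Tgfbr1. A match of letters is not a bound site. RefSeq windows were examined for 5 of the 10 members. The other members were left out of that step, so their lack of a window here says nothing of their upstream DNA. Any windows listed for them were searched only as part of all 32851 windows.

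Among all tested genes with a mean of at least 20 CPM, the 3 whose log2 CPM over the 6 libraries was most like that of Skil were Spg11 (Pearson's r = 0.998), Cabin1 (r = 0.978) and Pced1b (r = 0.976). For Smad3, the member of second smallest p, they were Cstf2 (r = 0.987), Cdadc1 (r = 0.985) and Elac2 (r = 0.979). None of these 6 genes passed the test between the ages. With 7079 genes compared over 6 libraries such values are a description of these libraries.

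Around the members, 92 other genes of the pathway were looked up in 7 lists, of which 69 could be tested. Of these 69, 1 rose in infant cells, 0 fell and 68 did not pass, which is 1.45% called against 3.64% of all tested genes. Their median log2 fold change was 0.035, against −0.0017 over all tested genes. The gene that rose was Nedd4, an E3 ubiquitin ligase that binds SMAD7 and SKIL among many other substrates. It had 25.5, 34.8 and 57.0 CPM in the infant and 6.06, 9.94 and 4.49 CPM in the adult libraries. Every infant was above every adult, with a log2 fold change of 2.54 ± 0.34 (edgeR adjusted p = 9.10e-04). The summed level of 12 cell cycle genes also did not overlap between the ages, at 83.8, 99.6 and 206 CPM in the infant and 12.6, 50.6 and 14.3 CPM in the adult libraries, and its part in the level of Nedd4 was not tested. The other 14 of the 15 tested SMAD ubiquitin ligases and deubiquitinases did not pass, among them Smurf2, the ligase that SMAD7 brings to the receptor, at 59.7 ± 1.83 CPM in infant and 55.0 ± 6.69 CPM in adult cells, and Usp15, which removes ubiquitin from the receptor complex and receptor-regulated SMADs, at 173 ± 14.03 CPM in infant and 166 ± 22.1 CPM in adult cells.

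Genes that store and activate the ligand were mostly below the filter, with 4 of 14 tested and 0 called. Nrros, which tethers latent TGF-beta on myeloid cells and microglia, was at 172 ± 15.1 CPM in infant and 171 ± 14.2 CPM in adult cells, and Itgav, the integrin chain that activates the latent ligand, at 19.7 ± 1.52 CPM in infant and 20.3 ± 7.81 CPM in adult cells. Lrrc32, which encodes the anchor of latent TGF-beta on activated regulatory T cells, was too low to test (0.150 ± 0.131 CPM in infant and 0.284 ± 0.492 CPM in adult cells). Furin, a protease that cleaves the TGF-beta precursor, had 15.9, 14.5 and 15.7 CPM in the infant and 7.03, 14.5 and 4.91 CPM in the adult libraries. Its log2 fold change of 0.82 ± 0.37 did not pass (edgeR adjusted p = 0.264). Adult replicate 2 lay close to the lowest infant, and without it Furin was at 1.37 and passed (adjusted p = 0.0409).

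Of the other receptors of the family, 7 of 14 were tested and 0 called. Acvrl1, which encodes the type I receptor ALK1 known from endothelial cells, had 63.0, 56.4 and 81.9 CPM in the infant and 95.3, 86.4 and 101 CPM in the adult libraries. All infants were below all adults, but the log2 fold change of −0.49 ± 0.15 did not pass (edgeR adjusted p = 0.102). Acvr1b, an activin type I receptor, was at 26.3 ± 3.27 CPM in infant and 23.8 ± 3.96 CPM in adult cells. Bmpr2, the type II receptor of bone morphogenetic proteins, had 11.7, 12.6 and 8.21 CPM in the infant and 2.67, 10.2 and 2.35 CPM in the adult libraries. It did not pass with all libraries (log2 fold change 1.13 ± 0.51, adjusted p = 0.272) and passed without adult replicate 2, at 2.10 (adjusted p = 0.0177). Furin and Bmpr2 are named because they passed in that setting and were chosen after their values were seen.

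Of the SMADs of the bone morphogenetic protein branch, Smad5 was at 44.8 ± 3.26 CPM in infant and 47.9 ± 7.02 CPM in adult cells. Smad1 had 6.70, 3.63 and 4.11 CPM in the infant and 8.24, 11.1 and 9.83 CPM in the adult libraries, with no overlap, and did not pass (edgeR adjusted p = 0.202). Smad6 and Smad9 were too low to test. None of 13 tested adaptors and phosphatases passed, with Fkbp1a, which holds the type I receptor inactive, at 233 ± 4.53 CPM in infant and 241 ± 6.07 CPM in adult cells, and Strap, which binds SMAD7 and the receptor, at 209 ± 27.0 CPM in infant and 177 ± 19.3 CPM in adult cells. None of 16 tested SMAD cofactors passed, with the corepressor gene Ncor1 at 321 ± 11.04 CPM in infant and 306 ± 38.9 CPM in adult cells and the coactivator gene Crebbp at 277.5 ± 20.9 CPM in infant and 286 ± 6.00 CPM in adult cells. None of 12 tested genes of the SMAD-independent branch passed, with Rhoa, a small GTPase, at 390.3 ± 10.8 CPM in infant and 381 ± 4.50 CPM in adult cells and Traf6, a ubiquitin ligase of the TAK1 branch, at 102 ± 14.9 CPM in infant and 85.6 ± 4.50 CPM in adult cells.

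Of the genes listed as TGF-beta targets, the 4 that passed were all lower in infant cells, 2 of them listed as induced and 2 as repressed by TGF-beta. Of 22 genes listed as induced by TGF-beta, which include 5 of the members, 16 were tested, 0 rose, 2 fell and 14 did not pass, where 3.64% of all tested genes passed and 2.11% fell. Without adjustment 8 of the 16, Skil among them, had an edgeR p under 0.05 in either direction, where 17.3% of all tested genes did. The lists were chosen with earlier results of these data known. The median log2 fold change of the 16 was −0.18, against −0.0017 over all tested genes. The 2 that fell were Gpr183, an oxysterol receptor that guides cells within lymphoid tissue, and Junb, an AP-1 transcription factor. Gpr183 had 154, 134 and 142 CPM in the infant and 299, 217 and 253 CPM in the adult libraries (log2 fold change −0.84 ± 0.13, edgeR adjusted p = 0.00218). Junb had 144, 130 and 143 CPM in the infant and 184, 219 and 182 CPM in the adult libraries (−0.49 ± 0.12, adjusted p = 0.0319). Its call was lost without any 1 of the 6 libraries (adjusted p of 0.0648 to 0.199). It was also lost without a filter on low counts (edgeR adjusted p = 0.194). Under other settings Id2, an inhibitor of DNA-binding proteins, also passed as lower in infant cells (without a filter, adjusted p = 0.0405, by DESeq2, adjusted p = 0.0433, and without adult replicate 3, adjusted p = 0.0499), and Rgs1, a regulator of G protein signalling, passed as higher without a filter (adjusted p = 0.0441).

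Of 17 genes listed as repressed by TGF-beta, 10 were tested, 0 rose, 2 fell and 8 did not pass, beside the same 2.11% of all tested genes that fell. The median log2 fold change of the 10 was −0.12, and 3 of them had an unadjusted edgeR p under 0.05. Prf1, which encodes the pore-forming protein perforin, had 29.1, 17.2 and 23.7 CPM in the infant and 79.0, 83.5 and 91.7 CPM in the adult libraries (−1.86 ± 0.19, edgeR adjusted p = 7.34e-05). Il18r1, a chain of the interleukin 18 receptor, had 29.3, 27.1 and 23.7 CPM in the infant and 45.1, 56.0 and 50.8 CPM in the adult libraries (−0.92 ± 0.18, adjusted p = 0.0106). It no longer passed when infant replicate 2 (adjusted p = 0.0643) or infant replicate 3 (adjusted p = 0.0566) was left out. Myc, a transcription factor of cell growth, had 176, 197 and 222 CPM in the infant and 135, 139 and 162 CPM in the adult libraries, every infant above every adult. Its log2 fold change of 0.45 ± 0.12 did not pass (edgeR adjusted p = 0.0604), but it passed as higher in infant cells with library totals (adjusted p = 0.0444), with the stricter filter (adjusted p = 0.0458) and by DESeq2 (adjusted p = 0.0236), which brings the list to 1 higher and 2 lower. The summed level of 7 natural killer cell markers was also lower in infant libraries, at 7.33 to 9.92 CPM, than in adult libraries, at 14.3 to 32.1 CPM. Most of that sum was Klrd1 (7.78 ± 0.900 CPM in infant and 19.7 ± 5.74 CPM in adult cells), while Ncr1 and Klra4 had 0 counts in all 6 libraries. The part of such cells in the levels of Prf1 and Il18r1 was not tested.

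**Figure D4:**
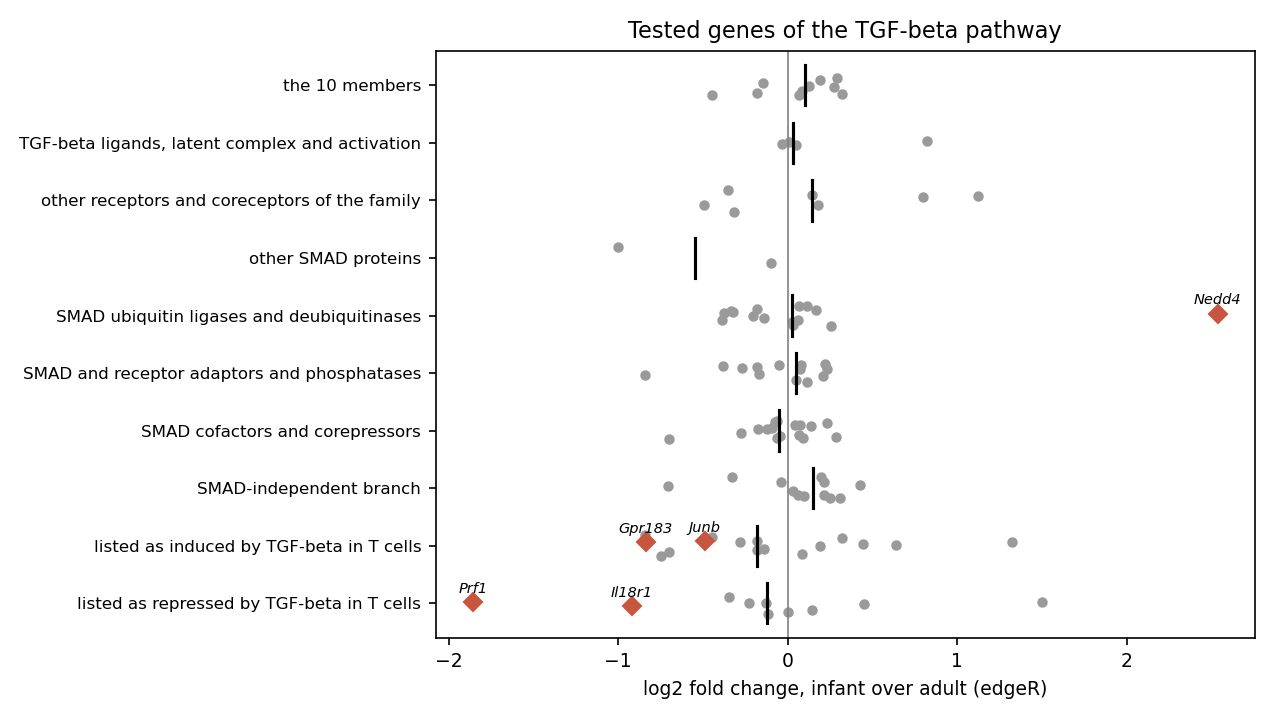
Log2 fold change, infant over adult, of every tested gene in the 10 members and in each list of pathway genes (grey points), with red diamonds for genes that passed the edgeR test and black lines at the median of each list. The members and most lists centre near 0, Nedd4 lies far to the right, and Gpr183, Junb, Prf1 and Il18r1 lie to the left.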

How the data were processed

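Polyadenylated RNA of 1000 cells per library, sorted 2 times, was amplified by PCR without molecular identifiers and sequenced in paired reads of 25 bases, per the labels' protocols, which name no step that marks strand. Reads were aligned with STAR 2.5.4 to mm10 and counted with featureCounts, per the submitters' processing notes. No source used here names the annotation release or says what was done with multi-mapping reads. The deposited file holds raw counts per gene symbol, which the authors did not normalise. At most 4.23% of the 25-base windows of any member also occur in transcripts of another gene (GENCODE M21).

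Counts were tested in R 4.3.3 with edgeR 4.0.16 (glmQLFit and glmQLFTest); filterByExpr removed low genes (minimum count 10, total 15) and TMM scaled the libraries (factors 0.963 to 1.07), with Benjamini-Hochberg adjustment at 0.05 over 11681 genes. Positive log2 fold changes mean higher in infants, and an SE is the absolute log2 fold change over the square root of F. CPM divides by the summed counts of tested genes, scaled by TMM. Exon lengths and positions came from GENCODE M21 on the same build, in which 93.3% of symbols matched. The fit was tested on simulated data. Alternatives used DESeq2 1.42.0, limma 3.58.1, other scalings and filters, the replicate number as a block, and each library left out in turn. The members and the gene lists, drawn from general knowledge of unequal strength, were chosen with earlier results of these data known. Other pathway genes were named if they passed the test, or else if they were the 2 of highest level in their list; Smurf2, Usp15, Lrrc32, Furin, Bmpr2, Id2, Rgs1, Myc, Tnfrsf18 and Klrd1 were added after their values were seen. The labels give no batch.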

Additional observations from a re-analysis of the deposited data

How the results depend on the processing

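In all 14 alternatives 0 of the 10 members passed the test, with 0.179 the lowest adjusted p (Ski, without adult replicate 3). The 10 members kept their direction in every alternative, except that Smad2 ran from −0.065 to 0.18 on the log2 scale when 1 library was left out. The count of genes that differed over the whole table was 425 with all libraries and 139 to 488 without 1 of them. The count of other pathway genes called was 1, and 1 to 3 without 1 library, 3 being reached without adult replicate 2. For genes listed as induced by TGF-beta the count of 2 was 1 to 2 without 1 library, and for those listed as repressed it was likewise 1 to 2. Without a filter the induced list reached 3, with Rgs1 higher and Gpr183 and Id2 lower, since Junb was lost (edgeR adjusted p = 0.194). By DESeq2 it reached 3, with Id2 lower beside Gpr183 and Junb. The repressed list reached 3, with Myc higher, with library totals, the stricter filter and DESeq2. Without a filter on low counts the median over all 39470 genes was −0.84, while the members lay between −0.40 and 0.36.

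Same-numbered infant and adult libraries did not vary together (correlations of their deviations −0.047, −0.011 and −0.092). With 3 libraries per age such values cannot decide whether the number pairs mice. With the replicate block 326 genes were called, 0 of them members, and 1 gene listed as induced by TGF-beta, since Junb was lost (adjusted p = 0.0662). Per kilobase of the longest transcript the means over 6 libraries were 3.38 for Tgfb1, 6.68 for Tgfbr1 and 12.6 for Skil, against 1.72, 5.88 and 8.71 per kilobase of all exons. With 3 mice per age, the intervals of the members other than Tgfb1 reach at most 1.71-fold higher (Tgfbr2) or down to 0.677-fold (Smad7). Fold changes inside the interval of a member cannot be told apart with these libraries.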
